A study of Mus musculus with 73 samples.

Results

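The Prader-Willi domain of mouse chromosome 7 was described here through 7 genes: Snrpn-Snurf, Snhg14, Magel2, Ndn, Peg12, Mkrn3 and Ube3a. They were chosen by name, as the genes known for parent-of-origin expression in this domain, and 6 of the 7 have a row among the 30546 genes of the allele-specific table. Ndn was not analysed here. Reads over polymorphisms between the parental strains were followed in 72 libraries, from the epiblast, which forms the embryo proper, and from the extraembryonic ectoderm (ExE), which contributes to the placenta. Both tissues came from single mouse embryos at embryonic day 6.5, with the visceral endoderm taken off.

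All knockout embryos and 1 set of wild types had a BDF1 mother and a CAST father (BDF1xCAST) and were made by injecting CAST sperm into BDF1 eggs, with transfer to surrogate mothers. Knockouts were made in the zygote, by injecting Cas9 mRNA and guide RNAs, so the embryos analysed are the injected ones and their edits are not those of a bred line. The BDF1xCAST wild types comprised 7 epiblast and 7 ExE libraries. Dnmt1 knockout (the enzyme that copies DNA methylation at replication) had 3 and 3. G9a-Glp knockout (the H3K9 methyltransferases encoded by Ehmt2 and Ehmt1) had 6 and 8. Rnf2 knockout (a catalytic subunit of Polycomb repressive complex 1) had 6 and 5, and Eed knockout (a core subunit of Polycomb repressive complex 2) had 9 and 10. The reciprocal wild type, with a CAST mother and a BDF1 father (CASTxBDF1), had 4 and 4 and came from natural mating, so the direction of the cross and the way of fertilisation cannot be told apart. The same 7 BDF1xCAST embryos are the controls of all 4 knockouts.

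As background, the domain is read from the paternal chromosome. Its imprinting centre lies at the Snrpn promoter, which carries DNA methylation on the maternal chromosome from the egg onwards, and loss of the paternal copies in humans causes Prader-Willi syndrome. Snrpn encodes SmN, a spliceosomal Sm protein, and shares its transcript with Snurf, a short upstream reading frame. Snhg14 is the long RNA that runs on from Snrpn, hosts the Snord116 and Snord115 small nucleolar RNAs and, in neurons, reaches across Ube3a in antisense. Magel2 and Ndn encode MAGE family proteins, Mkrn3 a RING-finger protein and Peg12 a protein of the Frat family. Ube3a, the ubiquitin ligase lost in Angelman syndrome, is read mainly from the maternal chromosome in neurons and from both chromosomes in most other tissues.

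The promoter letters are shown because the imprinted methylation of the domain is known to sit on CpG dinucleotides at the Snrpn start. RefSeq windows of 300 bases, from 250 before to 50 after a start (GRCm38.p6, the genome of mm10), were found for all 8 gene symbols looked up, Snrpn and Snurf counted apart, at 9 positions. The window of the start shared by Snrpn and Snurf (chr7:60005150-60005449, minus strand) is printed 5′ to 3′ with its 7 CpGs in capitals.
Snrpn and Snurf start: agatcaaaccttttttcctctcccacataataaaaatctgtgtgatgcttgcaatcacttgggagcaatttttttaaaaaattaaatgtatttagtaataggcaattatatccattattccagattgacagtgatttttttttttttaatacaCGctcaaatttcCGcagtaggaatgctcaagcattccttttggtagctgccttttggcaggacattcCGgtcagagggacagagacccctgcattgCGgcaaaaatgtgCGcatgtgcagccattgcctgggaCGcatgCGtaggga
The median window in the RefSeq table also holds 7 CpGs. The 3 upstream windows hold 4, 3 and 2 CpGs, the last being that of Snhg14. The other members' windows hold 10 in Magel2, 11 in Ndn, 12 in Peg12, 15 in Mkrn3 and 29 in Ube3a. Among the runs of letters that recur in the windows is CGCATGCG, which reads the same on both strands and was picked after the sequences had been seen. It is shown in capitals with its neighbouring bases.
Snrpn and Snurf start (chr7:60005150-60005449, minus strand): gcctgggaCGCATGCGtaggga
Snrpn, first upstream start (chr7:60047929-60048228, minus strand): aacatgcaCGCATGCGtcgttgaa
Snrpn, second upstream start (chr7:60140176-60140475, minus strand): aacatccaCGCATGCGtgatggga
Snrpn and Snhg14, farthest upstream start (chr7:60450128-60450427, minus strand): aacatccaCGCATGCGtgattgga
Ndn start (chr7:62348027-62348326, plus strand): tcccaacaCGCATGCGcaatatcg
It lies 36 bases after the Snrpn and Snurf start, 63 to 78 bases before the upstream starts and 23 bases before the Ndn start. The letters occur in 5 of the 9 windows of the domain and in 611 of all 32817 windows (1.86%). The 3 upstream windows also share 1 run of 49 bases that no other window in the table holds, the window of the main Snrpn start included.
Shared by the 3 upstream windows: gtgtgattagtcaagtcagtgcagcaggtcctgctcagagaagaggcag
These are matches of letters only. No methylation or binding data were used here, so nothing is said about factors or about which of these starts was in use.

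How much of the domain can be read varied widely. A member was taken as readable in a group when at least 3 libraries had 10 or more reads. Snrpn-Snurf (chr7:59982501-60140219, mm10) had 51260 reads over all libraries and was readable in 12 of the 12 groups of genotype, cross and tissue. Snhg14 had 6522 reads and was readable in 11. Its row covers chr7:59969577-59974431, a stretch just downstream of Snrpn, not the whole host RNA, so it says nothing of the part that hosts Snord115 or faces Ube3a. Magel2 (chr7:62376979-62381640, a gene of 1 exon) had 1621 reads and was readable in all 6 epiblast groups and in no ExE group. Peg12 (chr7:62461871-62464510) had 886 reads and was readable in 2 epiblast and 4 ExE groups. Ube3a (chr7:59228750-59306733) had 754 reads and was readable in 3 epiblast and 3 ExE groups, wild types not among them. Mkrn3 (chr7:62417593-62420139) had 9 reads in 4 libraries and was readable in none.

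Libraries held 1141414 to 17653087 reads over polymorphisms (median 2711272), and the Rnf2 epiblasts were the deepest. Levels are given as reads per 1000000 such reads (CPM), which can be compared between libraries for 1 gene but not between genes. The targeted transcripts, set against the BDF1xCAST wild type of the same tissue, stood at 24.3% in epiblast and 61.4% in ExE for Dnmt1, and at 5.96% and 3.95% for Eed. Those of Rnf2 stood at 58.6% and 77.4%, Ehmt1 at 72.2% and 50.6%, and Ehmt2 at 100% and 24.4%. Reads outside an edited stretch are still counted, so a remaining transcript does not show remaining protein. Epiblast markers (6 of 6 detected) summed to 1826 to 6261 CPM in epiblast libraries and to 487 to 1285 CPM in ExE libraries. Markers of visceral endoderm reached 2349 CPM in 1 CASTxBDF1 epiblast and 436 CPM in BDF1xCAST epiblast 8. That second library also had the lowest Snrpn-Snurf and Snhg14 levels of its group (123.5 and 34.3 CPM), and the part of other tissue in them was not tested. Markers of decidua and maternal blood stayed at or under 38.3 CPM in every library.

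In wild-type embryos of both crosses Snrpn-Snurf, Snhg14 and Magel2 were read from the paternal chromosome, with either strain as the father. In the 7 BDF1xCAST epiblasts Snrpn-Snurf had 162 to 1061 reads per library (median 384), and maternal reads appeared in 2 of them, 5 of 1061 in embryo 2 and 5 of 507 in embryo 4. The mean maternal share was 0.208% ± 0.385 (SD, n = 7). In the CASTxBDF1 epiblasts there were 1 of 536, 1 of 733 and 5 of 418 maternal reads. The library of 1355 reads lay at the limit of the deposited score, so its share is known only to be under 0.5%. So neither cross had a library above 1.20%.

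Snhg14 had 0 of 177, 1 of 195, 3 of 226, 0 of 248, 0 of 196, 0 of 261 and 2 of 45 maternal reads in the BDF1xCAST epiblasts. In CASTxBDF1 it had 0 of 177, 1 of 188, 0 of 229 and 1 of 169. Magel2 had no maternal read in any wild-type epiblast, in 222 reads of BDF1xCAST (22 to 46 per library), which allows a share of up to 1.35%, and in 132 reads of CASTxBDF1 (21 to 50 per library), which allows up to 2.27%. These limits and the binomial intervals given here cover counting error only. By edgeR's quasi-likelihood test with Benjamini-Hochberg adjustment over all genes, the parental term of the ratio of maternal to paternal reads passed the threshold of 0.05 for all 3 (adjusted p = 8.4e-16, 5.1e-14 and 4.1e-06 in that order). Of all 8469 genes tested, 0.319% passed. The strain term passed for none of the 3, also at an unadjusted p under 0.05, against 42.9% of all genes. With almost no maternal reads in either cross this term could hardly pass, so it cannot decide on a strain effect in these genes.

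Around them the neighbouring genes had both parental copies among their reads. Of 60 genes within the 8.96 Mb from Tubgcp5 to Apba2, 21 had at least 30 reads in the wild-type epiblasts of both crosses together. Tubgcp5 had a maternal share of 51.3% of 1128 summed reads and Cyfip1, a regulator of actin and translation, 50.3% of 2385. Herc2, a ubiquitin ligase, had 60.0% of 473 and Atp10a, a lipid flippase next to Ube3a, 47.1% of 276. On the other side of Magel2, Mphosph10 had 50.9% of 811 and Mcee 48.2% of 2614. The lowest share outside the members was 32.0% (Mtmr10, 122 reads), so the low shares were those of Snrpn-Snurf, Snhg14, Magel2 and Peg12. Peg12 rests on 1 maternal read of 34 (2.94%, 95% Wilson interval 0.521 to 14.9%). Of the 18 neighbours listed as not imprinted in most tissues, 10 had enough reads for 60 tests of the maternal share in a knockout against wild type. None was called by edgeR's quasi-likelihood test, and 9 had an unadjusted p under 0.05. Between the wild-type tissues 1 of 7 neighbours tested was called, Atp10a, as less maternal in ExE (log2 -2.80, adjusted p = 9.5e-03 by that test, 6.37% of all genes called). Over both crosses its wild-type ExE share was 31.3% of 166 summed reads.

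**Figure D1:**
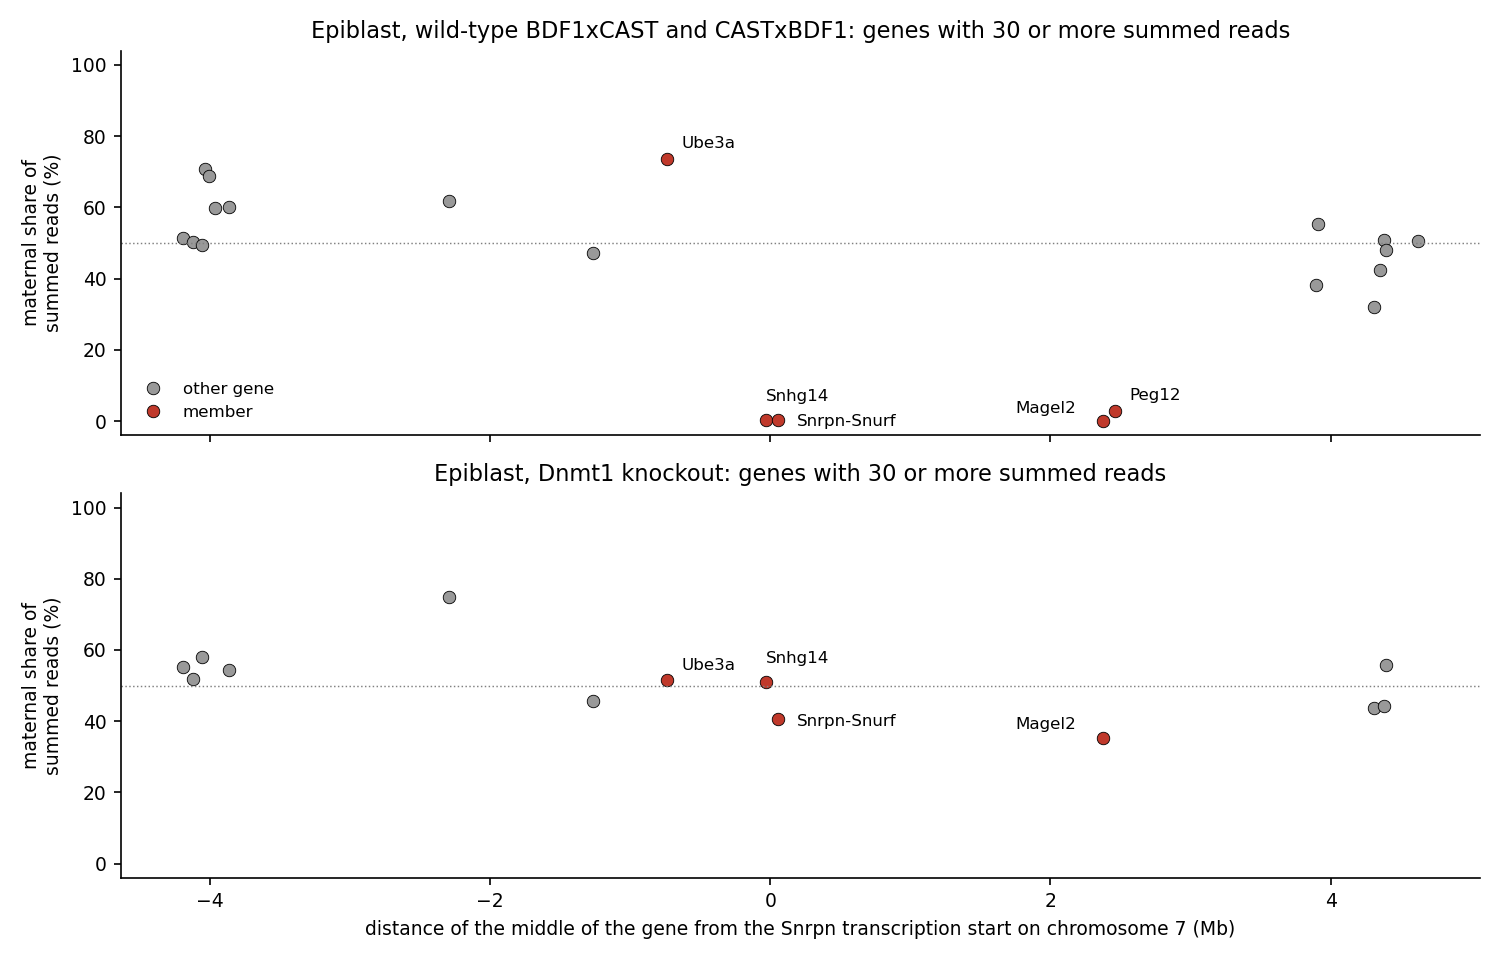
Maternal share of the summed reads in epiblast (y axis, %) by distance of the middle of each gene from the Snrpn start (x axis, Mb), with each point a gene with at least 30 summed reads, in wild type of both crosses (top) and in Dnmt1 knockout (bottom). Red points are genes of the domain. Snrpn-Snurf, Snhg14 and Magel2 lie at the bottom in wild type and at 35.4 to 51.0% in Dnmt1 knockout, where Peg12 has too few reads.

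In ExE Snrpn-Snurf was again read from the paternal chromosome, at a lower level. Maternal reads numbered 4 of 963 over the 7 BDF1xCAST libraries (68 to 181 reads each) and 5 of 876 over the 4 CASTxBDF1 libraries (175 to 286 each). Snhg14 had 0 of 85 in BDF1xCAST, which allows up to 3.53%, and 1 of 12, 0 of 33, 0 of 44 and 2 of 21 in CASTxBDF1. The parental term passed for both (adjusted p = 7.4e-14 and 6.0e-05, edgeR's quasi-likelihood test with Benjamini-Hochberg adjustment) and not for Peg12, where 0.844% of all genes passed. With a minimum of 20 reads Snhg14 could no longer be tested in ExE. Between the tissues the share of Snrpn-Snurf and of Snhg14 was not called as different (adjusted p = 0.857 and 0.792 by the same test, and no unadjusted p under 0.05, against 6.37% of all genes called). With limma on log ratios Snhg14 was called there (log2 3.00, adjusted p = 0.037).

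The levels of 4 members differed between the wild-type tissues. Snrpn-Snurf stood at 124 to 350 CPM in the BDF1xCAST epiblasts (median 152) and at 24.3 to 62.4 CPM in their ExE (median 51.0). Snhg14 went from 34.3 to 100.1 CPM (median 77.5) to 0.717 to 6.22 CPM (median 4.47), and Magel2 from 8.70 to 17.4 CPM to 2 reads in 1 of 7 libraries. For these 3 genes each ExE library lay below each epiblast library, and how many of all genes separate in this way was not counted. Peg12 went the other way, from 0 to 3.05 CPM in epiblast (mean 1.18 ± 1.30, SD, n = 7) to 3.67 to 8.93 CPM in ExE (6.06 ± 1.93, SD, n = 7).

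The test of total reads, ExE against epiblast in BDF1xCAST, called all 4 genes that could be tested, where 56.7% of all genes passed. It took the 2 tissues of an embryo as separate libraries, and the 4 calls held with the embryo number as a replicate block. On the log2 scale Snrpn-Snurf fell by 2.04 (SE 0.26, 4.11-fold, adjusted p = 3.4e-06, edgeR's quasi-likelihood test with Benjamini-Hochberg adjustment) and Snhg14 fell by 4.18 (SE 0.32, 18.1-fold, adjusted p = 5.6e-09). Magel2 was lower with an adjusted p of 9.6e-09 by that test, and from its counts the epiblast level was 134-fold that of ExE, with a counting interval from 36.5 to 1109. In CASTxBDF1 no Magel2 read was seen in ExE, and the epiblast level was at least 59.6-fold higher than a floor of 3 reads over the group. Peg12 rose by 2.52 (SE 0.57, 5.72-fold, adjusted p = 1.1e-03, same test). Fewer cells of a type and less RNA per cell cannot be told apart in bulk libraries.

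**Figure D2:**
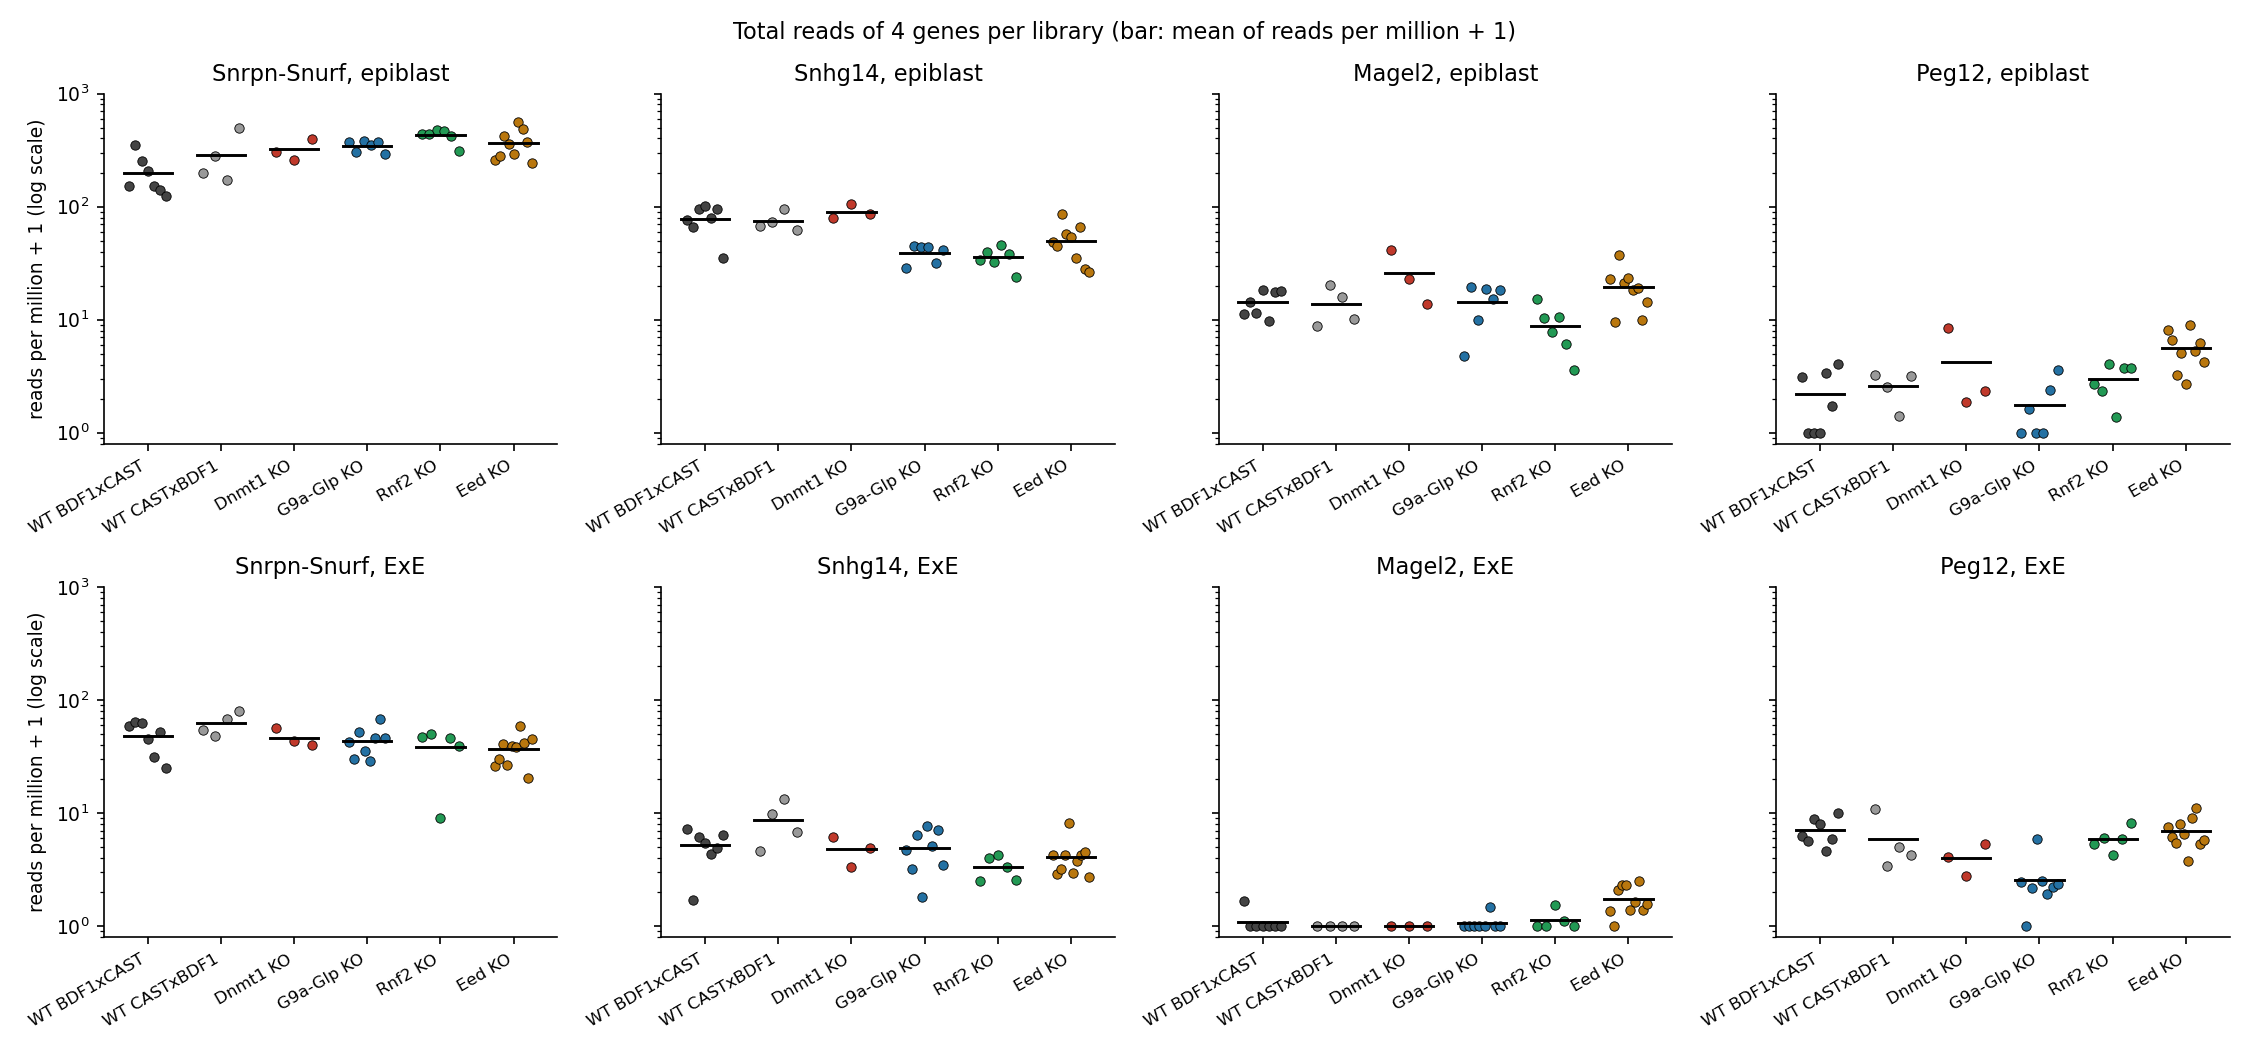
CPM plus 1 of Snrpn-Snurf, Snhg14, Magel2 and Peg12 (columns, log axis) in epiblast (top) and ExE (bottom), with each point a library, bars the group means and groups by genotype and cross. Snrpn-Snurf, Snhg14 and Magel2 are higher in epiblast and Peg12 is higher in ExE in wild type, and Magel2 is at or near 0 in ExE.

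With Dnmt1 knocked out, the maternal copies of all 3 readable members were read in epiblast. Snrpn-Snurf had 264 of 646, 107 of 292 and 250 of 594 maternal reads in the 3 embryos, a mean share of 39.9% ± 2.86 (SD, n = 3) against 0.208% in wild type. Snhg14 had 90 of 167, 53 of 119 and 67 of 126 (50.5% ± 5.21, SD, n = 3). Magel2 had 30 of 86, 5 of 25 and 11 of 19 (37.6% ± 19.1, SD, n = 3). In maternal share no Dnmt1 epiblast overlapped a wild-type epiblast in any of the 3 genes, and how many of all genes do the same was not counted.

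The change in maternal share was called for 3 of 3 members tested, where 0.908% of all genes were called. The log2 ratio of maternal to paternal reads rose by 7.73 (SE 0.34, adjusted p = 3.0e-12, edgeR's quasi-likelihood test with Benjamini-Hochberg adjustment) for Snrpn-Snurf and by 7.61 (SE 0.48, adjusted p = 1.3e-09) for Snhg14. Magel2 had an adjusted p of 9.6e-04 by the same test, and since wild type had no maternal read its maternal level was at least 54.2-fold above the floor of 3 reads over the group. The 3 calls held without any 1 library in turn. Within each Dnmt1 embryo the share of Snhg14 was above that of Snrpn-Snurf, by 7.90 to 13.0 percentage points (mean 10.7 ± 2.58, SD, n = 3), and with 3 embryos an exact two-sided paired test cannot go below p = 0.25. Ube3a and Peg12 had 35 and 19 reads over these libraries and could not be tested.

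**Figure D3:**
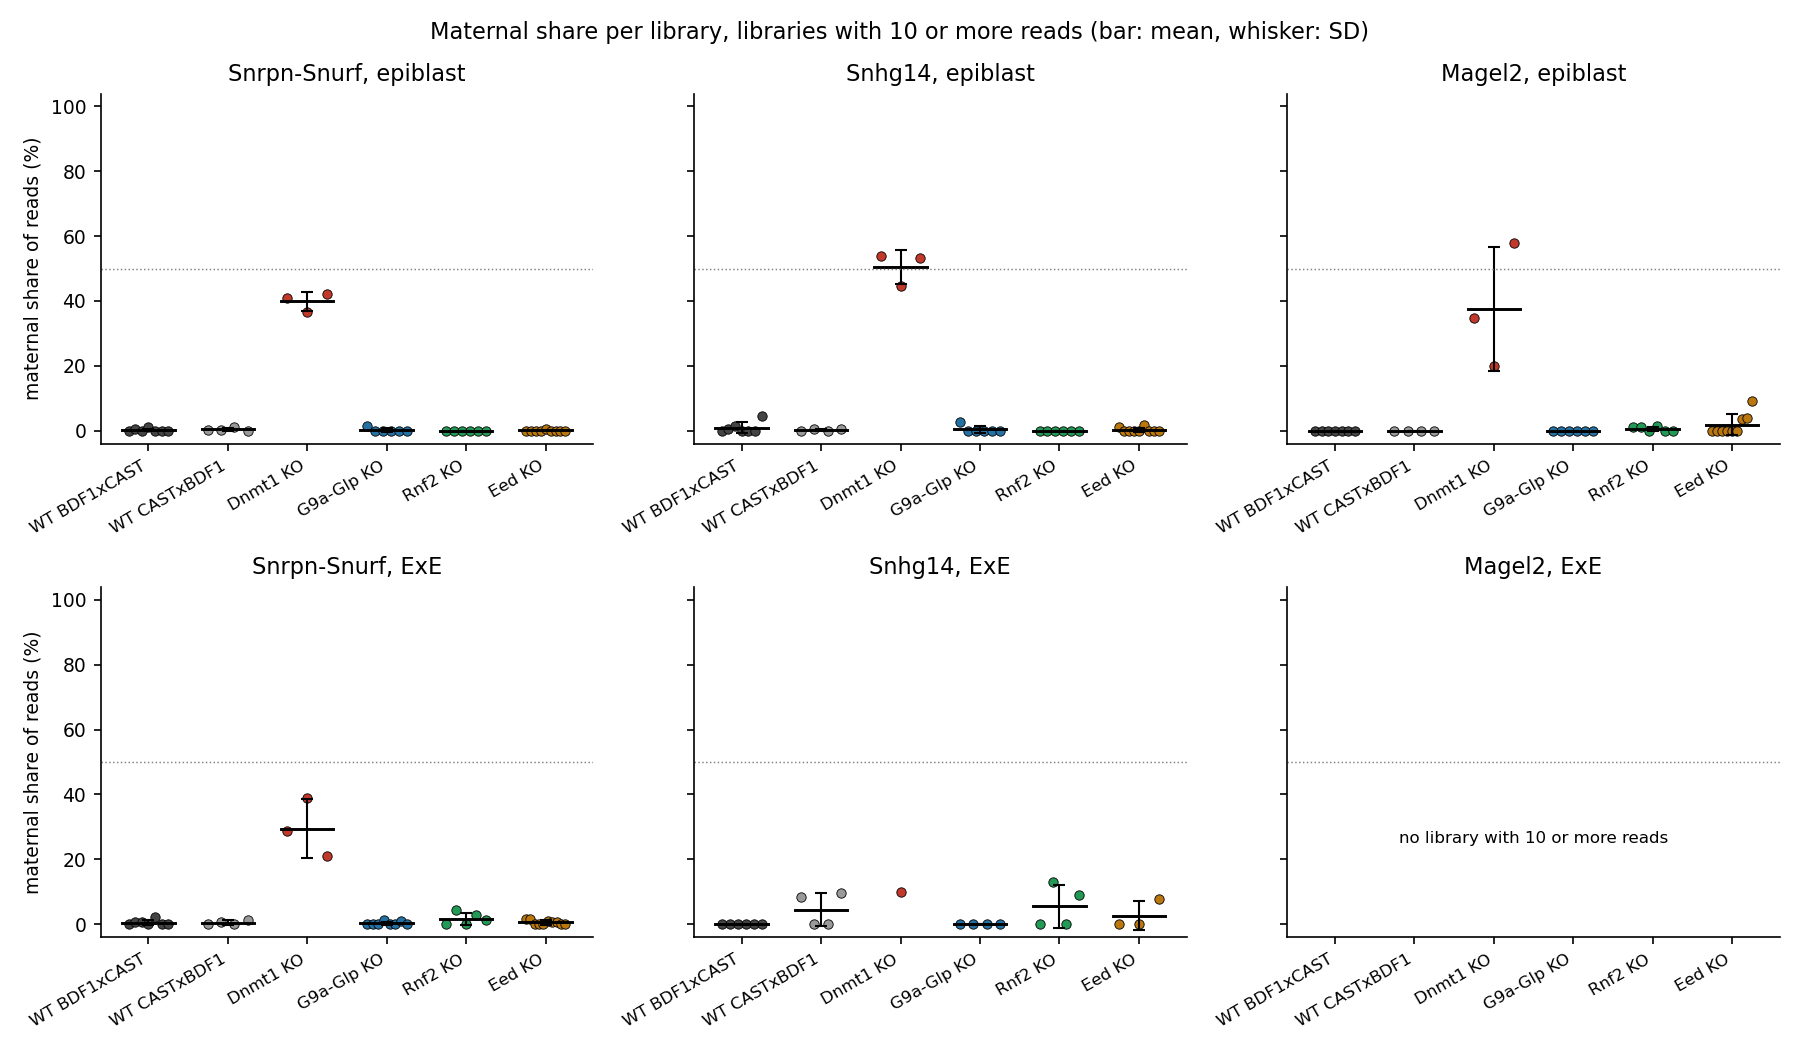
Maternal share of reads (y axis, %) of Snrpn-Snurf, Snhg14 and Magel2 in epiblast (top) and ExE (bottom), with each point a library of at least 10 reads, bars the mean and whiskers the SD, by genotype and cross. The 3 Dnmt1 epiblasts lie at 36.6 to 42.1% for Snrpn-Snurf and the libraries of every other epiblast group at or under 1.43%. Magel2 has no ExE library with 10 reads.

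Counting each allele by itself showed where the reads came from. Maternal Snrpn-Snurf went from 0 to 2.02 CPM in wild-type epiblast (mean 0.524) to a mean of 128 CPM in Dnmt1 knockout, and paternal Snrpn-Snurf was at 196 CPM on average in wild type and 191 CPM in the knockout. Maternal Snhg14 went from a mean of 0.445 to 44.5 CPM, while paternal Snhg14 stood at 76.8 and 44.5 CPM. For Magel2 the maternal means were 0 and 8.61 CPM and the paternal means 13.3 and 16.4 CPM. In the knockout the maternal mean thus lay below the paternal mean for Snrpn-Snurf and Magel2 and beside it for Snhg14.

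The maternal reads were called for 3 of 3 members, as higher (8.78% of all genes were called), with adjusted p = 1.7e-05 for Snrpn-Snurf, 4.5e-05 for Snhg14 and 4.4e-03 for Magel2 by edgeR's quasi-likelihood test with Benjamini-Hochberg adjustment. Paternal reads were called for none of the 3 (7.13% of all genes), with 1 at an unadjusted p under 0.05. The paternal log2 change of Snhg14 was -1.03 (SE 0.34, adjusted p = 0.084, same test), with 3 of 3 knockout values below the wild-type median, and those of Snrpn-Snurf and Magel2 were -0.26 (SE 0.33) and 0.08 (SE 0.40). Total reads were called for none of the 3 by edgeR or DESeq2, also at an unadjusted p under 0.05 in edgeR, where 14.1% of all genes passed. The log2 estimates were 0.48 (SE 0.32) for Snrpn-Snurf, -0.04 (SE 0.30) for Snhg14 and 0.70 (SE 0.34, unadjusted p = 0.057 by edgeR) for Magel2.

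**Figure D4:**
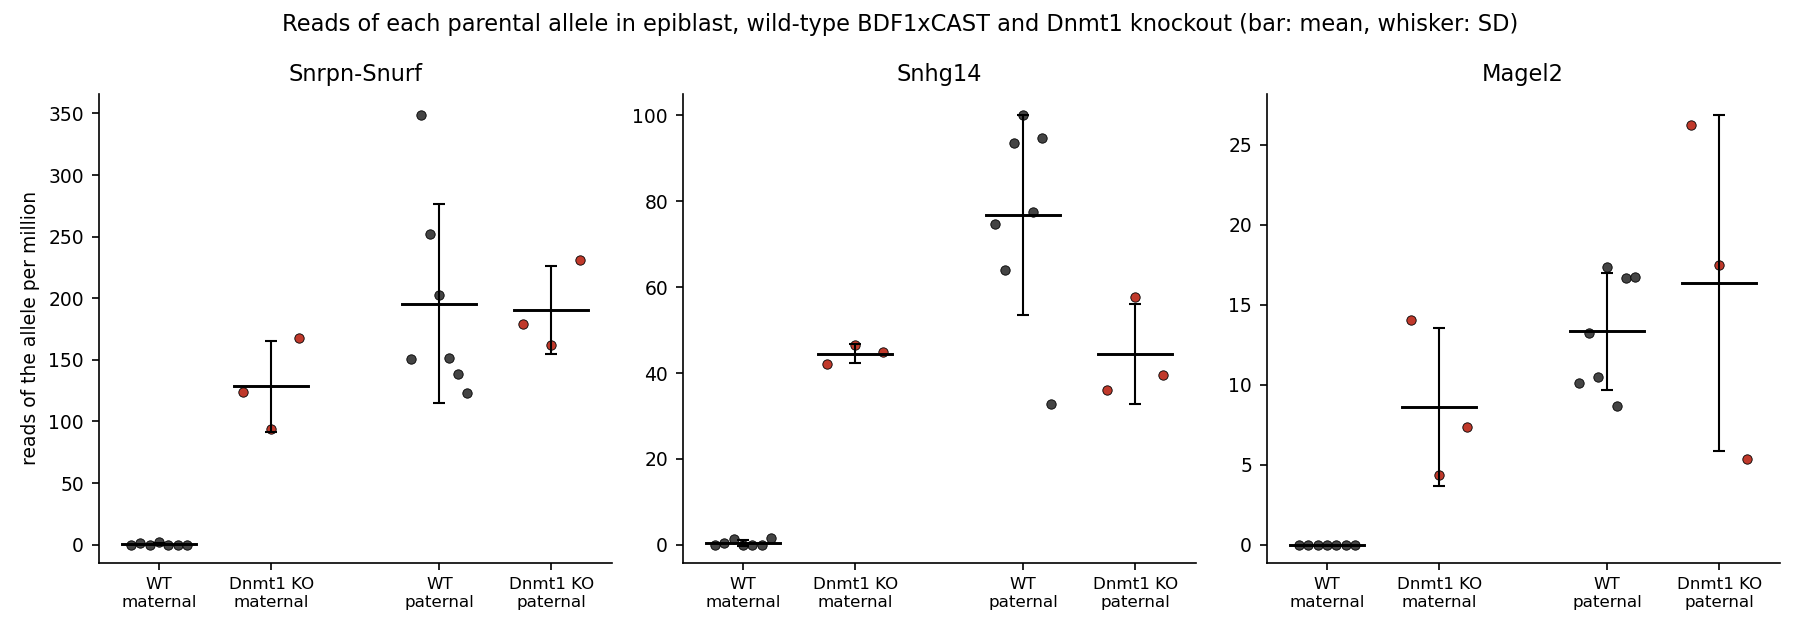
Reads of the maternal and of the paternal allele in CPM (y axis, linear, each gene on its own scale) in wild-type BDF1xCAST (grey) and Dnmt1 knockout (red) epiblast, with each point a library, bars the mean and whiskers the SD. Maternal reads of Snrpn-Snurf, Snhg14 and Magel2 are at or near 0 in wild type and at means of 128, 44.5 and 8.61 in the knockout.

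In ExE of the same knockout, Snrpn-Snurf had 31 of 108, 28 of 72 and 19 of 91 maternal reads (29.5% ± 9.03, SD, n = 3). Each of the 3 libraries was above each wild-type ExE, whose highest share was 2.20%, and how many of all genes do the same was not counted. The change passed the test (log2 6.30, SE 0.52, adjusted p = 2.2e-07, edgeR's quasi-likelihood test with Benjamini-Hochberg adjustment), where 0.856% of all genes passed, and Snrpn-Snurf was the 1 member with enough reads. Its maternal reads rose (adjusted p = 1.8e-04, same test, 13.4% of all genes called) and its paternal reads had a log2 change of -0.79 (SE 0.28, adjusted p = 0.073, 12.5% of all genes called). The change in share was not called as different between the tissues (-1.47, SE 1.35, adjusted p = 0.961), a comparison in which 0% of 6405 genes were called by edgeR, 332 had an unadjusted p under 0.05 and limma called 1. Dnmt1 transcript itself was less reduced in ExE. Snhg14 in ExE had 1 of 10, 3 of 4 and 2 of 9 maternal reads, at least 6.76-fold above the floor of 3 reads in wild type, and Magel2 had no read there.

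With G9a-Glp, Rnf2 or Eed knocked out, Snrpn-Snurf, Snhg14 and Magel2 were read mainly from the paternal chromosome in epiblast. With G9a-Glp knocked out, Snrpn-Snurf had 14 maternal reads of 982 in embryo 1 and none in 497 to 1063 reads of the other 5 embryos, Snhg14 had 2 of 73 in embryo 1 and none in 71 to 110 reads of the others, and Magel2 had none in 189 reads, which allows up to 1.59%. With Eed knocked out, Snrpn-Snurf had 3 of 696 in embryo 5 and no other maternal read in the 6 further libraries whose count is exact (400 to 1071 reads), and 2 libraries of 1938 and 1478 reads had a share of under 0.5%. Snhg14 had 1 of 94, 2 of 120 and none in the other 7 Eed libraries. Neither G9a-Glp nor Eed had a called change in any of 3 members by edgeR or limma (backgrounds 1.79% and 1.06% of all genes by edgeR). In edgeR 1 member had an unadjusted p under 0.05, Snrpn-Snurf in Eed. Without Eed embryo 5 it was called as less maternal (log2 -4.57, adjusted p = 0.046, edgeR), a value that rests in part on the 2 libraries with rounded counts.

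Magel2 had 2 of 56, 1 of 26 and 3 of 33 maternal reads in 3 of the 9 Eed epiblasts and none in 12 to 82 reads of the other 6, a mean share of 1.83% ± 3.16 (SD, n = 9). The change was not called (adjusted p = 0.535, edgeR's quasi-likelihood test with Benjamini-Hochberg adjustment).

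In the Rnf2 epiblasts Snhg14 had no maternal read in 1932, which allows a share of up to 0.155%, and Magel2 had 3 of 249, 1 of 90, 0 of 55, 1 of 75, 0 of 28 and 0 of 18. For Snrpn-Snurf, read 2188 to 7738 times per library, the deposited score had reached its largest value in all 6 libraries and the count came from a ratio rounded to 0.01, so the share is known only to be under 0.5%. The test called 1 of the 3 members, Snrpn-Snurf, as less maternal than wild type (log2 -5.84, adjusted p = 0.026, edgeR's quasi-likelihood test with Benjamini-Hochberg adjustment, 0.696% of all genes called). That call rests on the rounding. With the highest maternal count the rounding allows, the estimate was 0.77 with an adjusted p of 0.704, and without wild-type embryo 2 or 4 the adjusted p was 0.112 or 0.092. Counted by allele, maternal reads in Rnf2 epiblast were called as fewer for 2 of 3 members (21.8% of all genes called by that test), Snrpn-Snurf (adjusted p = 0.033), which rests on the same rounding, and Snhg14 (adjusted p = 0.045), with 0 of 1932 maternal reads against 6 of 1348 in wild type.

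Dnmt1 knockout was also set against each of the other knockouts directly, since a call in 1 of them and not in the others is not a difference. In epiblast 3 of 3 members had a higher maternal share in Dnmt1 knockout than in G9a-Glp knockout (adjusted p = 7.8e-10 for Snrpn-Snurf, 1.6e-08 for Snhg14 and 2.2e-03 for Magel2, edgeR's quasi-likelihood test with Benjamini-Hochberg adjustment, 0.387% of all genes called). The same 3 passed against Rnf2 knockout (1.4e-08, 2.6e-05 and 2.1e-03, with 0.413% of all genes called by that test) and against Eed knockout (2.1e-17, 2.3e-11 and 5.0e-04, 0.4%). In ExE Snrpn-Snurf passed against G9a-Glp (6.6e-08, 0.387%), Rnf2 (5.4e-03, 0.193%) and Eed (4.0e-08, 0.681%). The comparison with Rnf2 in ExE had an adjusted p of 0.052 without Dnmt1 embryo 2, by the same edgeR test, and the comparisons within a tissue share its 3 Dnmt1 libraries. With limma on log ratios the comparison with Rnf2 in ExE (adjusted p = 0.270) and that of Magel2 with Eed (adjusted p = 0.067) were not called.

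In ExE of the G9a-Glp, Rnf2 and Eed knockouts no member had a called change in share by edgeR or limma, of 2, 3 and 3 tested (backgrounds 1.1%, 0.922% and 2.65% of all genes by edgeR). In edgeR 1 had an unadjusted p under 0.05, Snrpn-Snurf in Rnf2. Maternal Snrpn-Snurf reads were 3 of 940 over the 8 G9a-Glp libraries and 5 of 1085 over the 10 Eed libraries. The Rnf2 libraries had 0 of 450, 22 of 501, 0 of 15, 10 of 371 and 3 of 265 (1.64% ± 1.89, SD, n = 5) and ranged from 0 to 4.39%, against 0 to 2.20% in wild type. The same embryo 4 had 4 of 31 maternal Snhg14 reads and embryo 7 had 1 of 11.

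The Rnf2 estimate for Snrpn-Snurf in ExE was 2.19 (SE 0.90, adjusted p = 0.384, edgeR's quasi-likelihood test with Benjamini-Hochberg adjustment). Markers of decidua and maternal blood, of which 2 of 6 were detected, summed to 2.63 to 7.74 CPM in these libraries. In BDF1xCAST wild type they summed to 0 to 0.687 CPM. Their part in the result was not tested. A comparison of the Rnf2 change between tissues called Snrpn-Snurf (log2 difference 7.99, SE 1.65, adjusted p = 0.028, same test, 0.274% of all genes called), and this call too rests on the rounded counts in epiblast: with the highest count allowed it was 1.48 with an adjusted p of 0.883.

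In total reads the G9a-Glp, Rnf2 and Eed knockout epiblasts had more Snrpn-Snurf and less Snhg14 than the BDF1xCAST wild type, the wild type meant in this paragraph unless named. Snrpn-Snurf stood at 292 to 382 CPM in G9a-Glp (median 359), 311 to 479 CPM in Rnf2 (median 438) and 240 to 554 CPM in Eed (median 353), against 124 to 350 CPM in wild type (median 152). Of these libraries 3 of 6, 5 of 6 and 5 of 9 lay above the highest BDF1xCAST wild type, so the groups overlapped. The CASTxBDF1 epiblasts, not part of these comparisons, stood at 171 to 490 CPM (median 239). Each G9a-Glp and Rnf2 library thus lay below the highest CASTxBDF1 library. Snhg14 stood at 27.5 to 43.4 CPM in G9a-Glp (median 41.6), 22.9 to 45.1 CPM in Rnf2 (median 34.9) and 25.5 to 85.2 CPM in Eed (median 47.4), against 34.3 to 100.1 CPM in wild type (median 77.5). Here 2 of 6, 3 of 6 and 3 of 9 were below the lowest wild type.

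The tests called both genes in each of these 3 knockouts, against the same 7 wild-type libraries, where 34.6% (G9a-Glp), 31% (Rnf2) and 35.7% (Eed) of all genes were called. Snrpn-Snurf rose by 0.72 on the log2 scale (SE 0.23, adjusted p = 0.020), by 1.07 (SE 0.23, adjusted p = 2.4e-03) and by 0.72 (SE 0.23, adjusted p = 0.018), in that order, by edgeR's quasi-likelihood test with Benjamini-Hochberg adjustment. Snhg14 fell by 1.13 (SE 0.22, adjusted p = 7.3e-04), by 1.22 (SE 0.23, adjusted p = 9.7e-04) and by 0.83 (SE 0.25, adjusted p = 0.013). Magel2 was not called in any of the 3 by edgeR, with log2 changes of -0.10 (SE 0.30), -0.78 (SE 0.32, adjusted p = 0.071) and 0.32 (SE 0.27). Its change in Rnf2 had an unadjusted p of 0.025, was called by DESeq2 (-0.80, adjusted p = 0.044) and was called by edgeR without Rnf2 embryo 1 (-1.02, adjusted p = 0.028). The count of 2 in 3 members is to be read against these backgrounds, and the neighbouring rows moved in opposite directions. Without G9a-Glp embryo 1 the Snrpn-Snurf change was 0.61 with an adjusted p of 0.065.

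The paternal allele by itself showed both changes. Its Snrpn-Snurf reads rose by 0.72 (G9a-Glp), 1.07 (Rnf2) and 0.72 (Eed) and its Snhg14 reads fell by 1.13, 1.21 and 0.83, and all 6 passed the test of edgeR with Benjamini-Hochberg adjustment (adjusted p from 1.7e-03 to 0.030, where 24.7%, 20.8% and 24.9% of all genes passed). With scaling by library totals, paternal Snhg14 in Eed had a change of -0.67 with an adjusted p of 0.051. For each 100 Snrpn-Snurf reads a wild-type epiblast held 18.4 to 68.3 Snhg14 reads (median 48.9) in BDF1xCAST and 12.5 to 54.8 (median 29.3) in CASTxBDF1. The Dnmt1 epiblasts held 21.2 to 40.8 (median 25.9). The G9a-Glp epiblasts held 7.43 to 14.3 (median 11.8), the Rnf2 epiblasts 6.52 to 9.73 (median 8.13) and the Eed epiblasts 6.19 to 20.1 (median 15.5). This ratio of 2 rows within a library does not depend on scaling. The G9a-Glp and Rnf2 libraries lay below each BDF1xCAST library, while 1 Eed library overlapped. Against CASTxBDF1, whose lowest library held 12.5, the Rnf2 libraries lay below and the G9a-Glp and Eed libraries overlapped. How many other pairs of genes separate in this way was not counted.

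**Figure D5:**
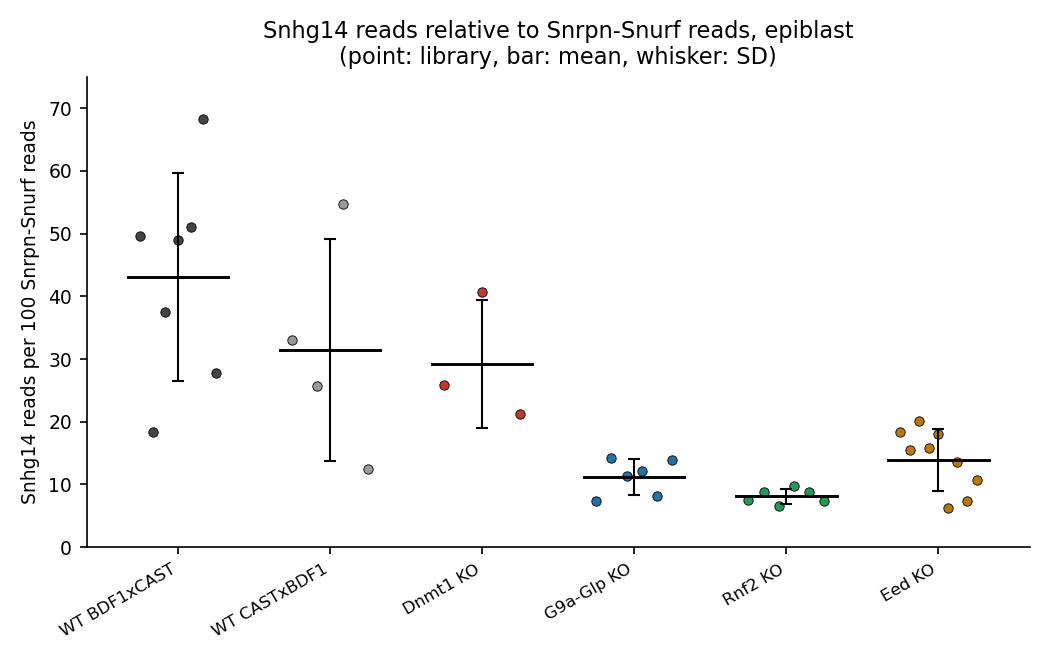
Snhg14 reads per 100 Snrpn-Snurf reads in epiblast (y axis), with each point a library, bars the mean and whiskers the SD, by genotype and cross. The 6 Rnf2 libraries lie between 6.52 and 9.73 and the 7 BDF1xCAST wild types between 18.4 and 68.3.

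Epiblast markers moved in some of these groups as well, with sums of 4022 to 6261 CPM in G9a-Glp, 1826 to 4037 CPM in Rnf2 and 2729 to 4578 CPM in Eed against 3029 to 4335 CPM in wild type, and their part in the levels was not tested. The Dnmt1 epiblasts, with 4152 to 4608 CPM, had no called change in either gene. In ExE none of the 4 knockouts had a called change in Snrpn-Snurf or Snhg14 by edgeR or DESeq2 (edgeR backgrounds 18.5% for Dnmt1, 15.2% for G9a-Glp, 22.2% for Rnf2 and 40.8% for Eed). In edgeR Snrpn-Snurf in Eed and Snhg14 in Rnf2 had an unadjusted p under 0.05. Without Eed embryo 7 or 10, or wild-type embryo 6 or 8, Snrpn-Snurf in Eed was called (-0.65 to -0.59), and without wild-type embryo 2 Snhg14 in Rnf2 was (-1.12, adjusted p = 0.025, edgeR). Estimates for Snrpn-Snurf ran from -0.52 (Eed) to -0.18 (G9a-Glp). One Rnf2 ExE library, of embryo 5, had 8.12 CPM of Snrpn-Snurf from 15 reads, where the next lowest had 37.9 CPM.

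Peg12 had reads of both parental copies in wild-type ExE. The 7 BDF1xCAST libraries had 2 of 16, 7 of 13, 11 of 23, 2 of 19, 2 of 11, 9 of 15 and 6 of 25 maternal reads (32.4% ± 20.8, SD, n = 7). In CASTxBDF1 there were 20 of 33, 6 of 9, 8 of 14 and 7 of 12 (58.7% on average over the 3 libraries with 10 reads). Summed over both crosses the maternal share was 42.1% of 190 reads (95% Wilson interval 35.3 to 49.2%), and in epiblast it was 1 of 34. Neither the parental term (-0.25, SE 0.35, adjusted p = 0.952) nor the strain term (-1.70, SE 0.70, adjusted p = 0.0505, where 49.1% of all genes passed) was called by edgeR's quasi-likelihood test with Benjamini-Hochberg adjustment. In the mean shares of both crosses the BDF1 copy had fewer reads than the CAST copy.

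In knockout ExE the Peg12 share was 45.8% ± 13.5 (SD, n = 4 libraries with 10 reads) in Rnf2 and 39.6% ± 21.5 (SD, n = 9) in Eed, and neither change was called (adjusted p = 0.728 and 0.793, same edgeR test). Its level fell with G9a-Glp knocked out, to 0 to 4.95 CPM over 8 libraries (mean 1.57 ± 1.45) against 3.67 to 8.93 CPM in wild type, a log2 fall by 1.97 (SE 0.42, 3.90-fold, adjusted p = 3.5e-03). It was the 1 member called of the 3 tested in G9a-Glp ExE, where 15.2% of all genes were called. Its maternal and paternal reads were both lower in G9a-Glp ExE, by 3.46 (SE 0.74, adjusted p = 4.6e-03, 11.1% of all genes called) and by 1.55 (SE 0.48, adjusted p = 0.044, 9.74%), and the paternal call was not kept when libraries were scaled by their totals (adjusted p = 0.051). Visceral endoderm markers summed to 20.3 to 138 CPM (median 53.5) in these G9a-Glp libraries against 12.2 to 27.5 CPM (median 20.1) in wild type, and their part in the level of Peg12 was not tested. In Dnmt1 ExE Peg12 was not called, and without wild-type embryo 6 it was (log2 -1.28, adjusted p = 0.049, edgeR). In epiblast the Rnf2 and Eed knockouts had shares of 16.8% ± 10.7 (SD, n = 5 libraries with 10 reads) and 17.6% ± 19.5 (SD, n = 4), which could not be tested since wild type had 34 reads over 11 libraries.

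Magel2 had few reads in ExE. Of the wild-type, Dnmt1, G9a-Glp and Rnf2 ExE libraries, 4 had any Magel2 read. In the Eed ExE, 9 of 10 libraries had 1 to 6 reads, 24 in all, of which 14 were maternal. Their level was 8.24-fold that of BDF1xCAST (counting interval 2.05 to 71.9). The gene was too low to enter the test of total reads. With no filter on low counts it had an adjusted p of 0.046 by edgeR's quasi-likelihood test with Benjamini-Hochberg adjustment, and no library reached the 10 reads needed for a share. Visceral endoderm markers summed to 38.0 to 75.1 CPM in these libraries against 12.2 to 27.5 CPM in wild type, and decidua markers to 3.13 to 15.1 CPM against 0 to 0.687 CPM. Their part in the Magel2 reads was not tested.

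Ube3a was read at a low level from both chromosomes. In epiblast its mean was 1.79 CPM in BDF1xCAST wild type, 8.11 in Dnmt1, 5.33 in G9a-Glp, 1.985 in Rnf2 and 4.59 in Eed knockout, not tested. Above the highest wild type lay 3 of 3, 6 of 6, 1 of 6 and 5 of 9 knockout libraries, in that order. The BDF1xCAST wild types had 0 to 10 reads each, and how many of all genes separate in this way was not counted. In ExE the means were 2.12, 6.13, 3.205, 2.65 and 3.83 CPM. The Dnmt1 change in ExE was not called by edgeR (18.5% of all genes called) and had an unadjusted p under 0.05. Summed over wild types Ube3a had 28 of 38 maternal reads in epiblast (73.7%, 95% Wilson interval 58.0 to 85.0%) and 42 of 87 in ExE (48.3%, 38.1 to 58.6%). By cross the ExE share was 27 of 44 in BDF1xCAST (61.4%) and 15 of 43 in CASTxBDF1 (34.9%), so that the BDF1 copy had more reads in both, and in epiblast it was 23 of 32 and 5 of 6. The strain term of Ube3a was not tested. In the epiblast groups with enough reads the mean shares were 51.0% ± 14.7 (SD, n = 6) in G9a-Glp, 33.4% ± 19.1 (SD, n = 5) in Rnf2 and 44.8% ± 9.72 (SD, n = 5) in Eed. In ExE they were 50.8% ± 12.4 (SD, n = 4), 57.1% ± 18.0 (SD, n = 4) and 51.3% ± 13.9 (SD, n = 6). No change in share could be tested because the wild types had too few reads. Whether reads were assigned by strand is not given in the sources used here, so Ube3a reads and reads of the antisense Snhg14 RNA cannot be told apart at this locus.

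For comparison, of 18 other genes listed as paternally expressed with a methylated maternal copy, 17 have a row. In Dnmt1 epiblast 7 could be tested for share and 6 became more maternal, with a median log2 change over the 7 of 4.68 against -0.01 over all genes. They were led by Peg3 (7.92, adjusted p = 2.0e-12), Impact (4.68, 1.1e-10), Mcts2 (6.39, 9.6e-09) and Mest (4.93, 2.9e-05) by edgeR's quasi-likelihood test with Benjamini-Hochberg adjustment. In Dnmt1 ExE 7 of 9 did, where 0.856% of all genes were called. In Eed ExE 4 of 9 were called, Sgce (3.60), Peg3 (3.38), Mest (2.34) and Impact (1.18), while the estimate for Snrpn-Snurf was 0.19 (SE 1.19). Peg3 was the 1 gene called of 8 tested in G9a-Glp (3.53), Rnf2 (2.98) and Eed (2.94) epiblast and of 9 in G9a-Glp ExE (3.32), with adjusted p from 9.2e-03 to 0.039 by this test. In Rnf2 ExE Peg3 (3.88, adjusted p = 0.042) and Sgce (3.56, adjusted p = 0.037) were called of 9 by edgeR, where the estimate for Snrpn-Snurf was 2.19 (SE 0.90). For Snrpn-Snurf it was -0.12 (SE 1.72) in G9a-Glp epiblast and -0.29 (SE 0.83) in G9a-Glp ExE. Whether Snrpn-Snurf and these genes differ was not tested.

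By the mean absolute difference of the maternal share over the 12 groups, the genes most like Snrpn-Snurf, of 4985 compared, were Mcts2 (4.76 percentage points), Mest (5.20), Kcnq1ot1 (9.17), Slc38a4 (9.85) and Peg3 (9.92), all paternally expressed. By the correlation of log2 levels over 72 libraries, of 7703 genes, the most alike were Gsta4 (r = 0.933), Qprt (0.928) and Gng3 (0.925), a description in which the libraries share the split into 2 tissues.

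Other genes around the members' known roles were taken from fixed lists. Among 12 factors that keep germline methylation imprints, 11 could be tested for total reads in Dnmt1 epiblast, where 14.1% of all genes were called. Dnmt1 itself, the targeted gene, fell by 2.27 (adjusted p = 5.6e-04, edgeR) and Atf7ip rose by 0.95 (adjusted p = 0.011, edgeR). In Rnf2 epiblast 2 of 11 rose and 5 fell, led by Dppa3 (4.19, adjusted p = 1.3e-05), which protects methylation in the zygote, and Dnmt3l (3.16, adjusted p = 6.2e-04), all by edgeR's quasi-likelihood test with Benjamini-Hochberg adjustment. In Eed epiblast 3 rose and 2 fell and in G9a-Glp epiblast 2 and 2, again of 11, against 31% (Rnf2), 35.7% (Eed) and 34.6% (G9a-Glp) of all genes called in either direction. Among the MAGE and Sm genes, a list that also holds Snrpn-Snurf and Magel2, Snrpb, which encodes the SmB protein that SmN resembles, rose beside Snrpn-Snurf in G9a-Glp (0.74, adjusted p = 1.3e-03), Rnf2 (0.69, adjusted p = 3.8e-03) and Eed (0.63, adjusted p = 1.4e-03) epiblast by that test. Of the 9 genes of that list that could be tested, 3 rose and 1 fell in G9a-Glp, 2 rose in Rnf2 and 3 rose in Eed, where 34.6%, 31% and 35.7% of all genes were called. Of the 18 neighbours along the chromosome, Atp10a, next to Ube3a, rose in the epiblasts of G9a-Glp (0.96), Rnf2 (1.49) and Eed and fell by 1.65 in G9a-Glp ExE. In these epiblasts Tubgcp5 fell in G9a-Glp and Eed and Cyfip1 in Rnf2 and Eed, so that 1 rose and 1 fell of 9 tested in G9a-Glp, 1 and 1 of 11 in Rnf2 and 1 and 2 of 8 in Eed.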

How the data were processed

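RNA-seq of 72 libraries from single embryos was read in allele-specific form, and 1 bisulfite library of G9a-Glp ExE was not analysed here. The authors deposited, per the file headers, the count of reads over polymorphisms between BDF1 and CAST for each RefSeq gene and library, the CAST share of those reads less 0.5 as a score rounded to 0.01, and the -log10 binomial p of the allelic bias as a signed score. That score is 0 under 10 reads and stops at 323.306. STAR 2.5.0, HTSeq and mm10 are named, with no role, in the submitters' processing notes. The set of polymorphisms and the use of strand are not given in the sources used here.

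Maternal and paternal counts were then worked back from the deposited ratio and score. This succeeded for 712269 of 715649 scored values (tolerance 0.006 in the score), and 3378 values, with 7.604% of reads, lay at the limit of the score, where the rounded ratio fixes the maternal share only to within 0.5 percentage points. Under 10 reads the ratio alone gave the whole number. No value column was left over.

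Changes in maternal share were tested with edgeR 4.0.16 (quasi-likelihood, R 4.3.3) on maternal and paternal counts with 1 term per library, where 3 or more libraries in each group had 10 or more reads of the gene. Total reads and reads of each allele were tested with edgeR after TMM scaling and its default filter on low counts. P-values were adjusted by Benjamini-Hochberg over every gene in the fit (threshold 0.05) and measure the spread between embryos. Knockouts were fitted with the BDF1xCAST wild type of their tissue only. Alternatives were limma 3.58.1 on log2 ratios with 0.5 reads added, DESeq2 1.42.0, scaling by library totals, minimums of 5 and 20 reads, no filter, 1 fit of all groups, the embryo number as a replicate block, each library left out in turn, and libraries whose targeted transcript was not low left out. Maternal counts at the upper end of the rounding were added after the data were seen. Tests were checked on simulated data. CPM is scaled to all reads over polymorphisms in a library, and limits of a count of 0 use 3 reads.

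Members were named by symbol. Named beside them were the targeted genes, at most 4 called genes per list and comparison by the smallest adjusted p, the 5 genes nearest in maternal share (20 or more reads in 3 or more libraries of every group) and the 3 nearest in log2(CPM + 1) (mean of at least 10 CPM). Genes named along the chromosome as neighbours were chosen after their values were seen. The members and lists were chosen with earlier results of these data known. Knockout and wild-type embryos share only numbers by their labels. In no pair of groups did every same-numbered pair correlate above 0.1 in its deviations from the group means. That includes wild-type epiblast and ExE of 1 embryo (r from -3.7e-05 to 0.516), so this check cannot show that a pairing is absent. By their labels, the wild-type epiblast and ExE libraries of the same number come from 1 embryo. Outside the replicate block, fits between tissues took them as separate libraries.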

Additional observations from a re-analysis of the deposited data

Results flagged for a closer look

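In 65 sets of 4 to 10 libraries, 13 held a value that stood apart from its group by Dixon's test at the 95% level. Its rate of about 1 group in 20 by chance holds for normally spread values, not for shares that are mostly 0. Where all other libraries are at 0, any 1 library with a maternal read is marked, so the 13 cannot be set against that rate. For Snrpn-Snurf the maternal share was highest in CASTxBDF1 epiblast 3 (1.20%, 5 of 418 reads, next 0.187%), G9a-Glp epiblast 1 (1.43%, 14 of 982, next 0), Eed epiblast 5 (0.431%, 3 of 696, next 0) and BDF1xCAST ExE 6 (2.20%, 2 of 91, next 0.575%). The CASTxBDF1 and Eed epiblasts also hold libraries whose share is known only to be under 0.5%, so those marks rest on rounded counts. The level of Snrpn-Snurf was lowest in Rnf2 epiblast 8 (310.8 CPM, next 418.6) and Rnf2 ExE 5 (8.12 CPM, next 37.9). The maternal share of Snhg14 was highest in BDF1xCAST epiblast 8 (4.44%, 2 of 45, next 1.33%) and G9a-Glp epiblast 1 (2.74%, 2 of 73, next 0), so that G9a-Glp epiblast 1 stood apart in both genes. The Snhg14 level was highest in Eed ExE 5 (7.21 CPM, next 3.54). Magel2 stood apart in Eed epiblast 3 by level (36.4 CPM, next 22.3) and in Eed epiblast 10 by maternal share (9.09%, 3 of 33, next 3.85%). Ube3a stood apart in G9a-Glp epiblast 2 by level (9.77 CPM, next 5.42) and in Rnf2 epiblast 5 by maternal share (66.7%, 8 of 12, next 28.6%). Most of these shares rest on 14 or fewer maternal reads. The Rnf2 change in the share of Snrpn-Snurf differed between ExE and epiblast by 7.99 on the log2 scale, a value that rests on rounded counts.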

How the results depend on the processing

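Of 1187 log2 values of single members under another setting, 1160 kept their side of the threshold with no called value changing sign (50 of them changed sign while called under neither setting), 14 lost a call, 12 gained one and 1 reversed. The reversed one was the Snrpn-Snurf share in Rnf2 epiblast, 0.77 with the largest maternal counts that rounding allows, a setting added after the data were seen. Under it the counts of called members were 0 for that comparison and 0 for the Rnf2 difference between tissues (each 1 otherwise). Of the member counts, 402 of 426 kept within 1.5 times.

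With limma, 1 member was called between the wild-type tissues (0 otherwise) and 0 in Dnmt1 against Rnf2 ExE (1 otherwise). With scaling by library totals the maternal reads gave 2 calls in Dnmt1 ExE (1 otherwise, Snhg14 added at 4.48), and the paternal reads 1 in Eed epiblast (2 otherwise) and 0 in G9a-Glp ExE (1 otherwise). This scaling moved the median of all genes by 0.206, 0.167, 0.235 and 0.192 in Dnmt1 epiblast, Eed epiblast, Dnmt1 ExE and Eed ExE. With no filter on low counts total reads gave 1 call in Eed ExE (0 otherwise), and with a minimum of 20 reads the parental term in wild-type ExE gave 1 (2 otherwise), since fewer genes could be tested.

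The embryo number as a replicate block does not pair knockout with wild-type embryos. In Rnf2 epiblast it gave 0 calls of share (1 otherwise, Snrpn-Snurf -4.65, adjusted p = 0.158 by edgeR). Total reads then had 0 calls in Eed epiblast (2 otherwise) and 1 in Dnmt1 ExE (0 otherwise), and the parental term in ExE 1 (2 otherwise). Under the block the wild-type parental term of Magel2 in epiblast had an adjusted p of 0.05005 by edgeR.

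Leaving out 1 library at a time, calls of share ranged from 0 to 1 in Eed and in Rnf2 epiblast and in Dnmt1 against Rnf2 ExE. Calls of total reads ranged from 0 to 1 in Dnmt1, Eed and Rnf2 ExE and from 1 to 2 in G9a-Glp epiblast. Where no cause is given above, the cause was not tested.

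Counts over all genes moved by more than 1.5 times mainly with limma on log ratios, for example from 65 to 25 for share in Dnmt1 epiblast, 66 to 13 in Dnmt1 ExE, 64 to 27 in Rnf2 epiblast, 83 to 15 in Rnf2 ExE, 96 to 23 in Eed epiblast, 237 to 152 in Eed ExE, 156 to 51 in G9a-Glp epiblast and 96 to 36 in G9a-Glp ExE, from 513 to 318 between the wild-type tissues and from 29 to 11, 28 to 13 and 15 to 3 in Dnmt1 against Eed epiblast, G9a-Glp epiblast and Rnf2 ExE. For the differences between tissues limma moved them from 69 to 42 (Eed), 22 to 12 (Rnf2) and 0 to 1 (Dnmt1). With the block they went from 96 to 43 (Eed epiblast), 64 to 21 (Rnf2 epiblast) and 83 to 26 (Rnf2 ExE) for share, from 3510 to 1909, 3144 to 1125 and 2113 to 494 for total reads in the same order, and from 27 to 16 and 73 to 46 for the parental term in epiblast and ExE. Without libraries whose targeted transcript was not low they went from 66 to 36 and 1804 to 1047 in Dnmt1 ExE and from 83 to 29 and 2113 to 529 in Rnf2 ExE, for share and total reads. Single fits moved them from 64 to 110 (Rnf2 epiblast, all groups in 1 fit), 29 to 18 (Dnmt1 against Eed epiblast, 20 reads), 0 to 2 (Dnmt1 difference between tissues, 5 reads) and 5293 to 8651 (wild-type tissues, no filter).

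Depth limits Peg12, Ube3a and Magel2 in ExE most, and a share under 0.5% cannot be resolved where the deposited score was at its limit. With only libraries of at least 20 reads the share of Snhg14 in Rnf2 ExE was 12.9% and that of Peg12 in CASTxBDF1 ExE 60.6%. Each of these 2 values comes from 1 library and is not a group mean.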
